A study of Mus musculus with 60 samples.

Results

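RNA levels of 10 genes for signalling proteins that liver epithelium secretes were compared in cholangiocyte-derived mouse liver organoids: the chemokines Ccl2, Ccl20, Cxcl1, Cxcl2, Cxcl5, Cxcl10, Cxcl16 and Cx3cl1, and the cytokines Csf1 and Il18, which are not chemokines but are released by epithelia to the same myeloid and lymphoid cells. The genes were chosen by name, with their levels in these data known and with Ccl2 singled out for its low level in dome cultures. All 10 were found by symbol among the 31354 genes of the 3 count tables. Organoids came from livers of C57BL/6N mice that the labels give as 3 to 4 months old, and the culture medium was HepatiCult. The labels name no transgene or drug in any group. Of the 60 libraries, 3 dome and 3 suspension cultures came from pools of 2, 4 and 3 mice. Dome organoids sat in drops of Matrigel, a basement membrane gel, whereas suspension organoids were shaken in 10% Matrigel. A further 12 libraries were bulk cultures of Sets 1, 3 and 4 at passages labelled 4 and 11, with 2 technical replicates each that were summed here. The remaining 42 libraries held 1 suspension-grown organoid each, and the 35 that the study kept were used: 8 from Set 1 at passage 11, 10 from Set 2 and 5 from Set 3 at passage 3, and 12 from Set 4 at passage 4. Each set came from 1 mouse.

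Chemokines are small secreted proteins that bind to receptors on leukocytes and draw them along a gradient. Bile duct epithelium is known to release them in injury and inflammation, and transcription of several is switched on by NF-kB, the factor that responds to bacterial products and tumour necrosis factor, while others follow interferon. Ccl2 is the classical attractant of Ccr2-bearing monocytes, Ccl20 binds to Ccr6 on lymphocytes and dendritic cells, and Cxcl1, Cxcl2 and Cxcl5 bind to Cxcr2 on neutrophils. Cxcl10 is an interferon-induced ligand of Cxcr3. Cxcl16 and Cx3cl1 are made as membrane proteins and are shed by proteases. Csf1 keeps macrophages alive through Csf1r, and Il18 is stored as a precursor that inflammasome caspases cut.

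In the mouse genome (GRCm38), Ccl2 (ENSMUSG00000035385) lies on the plus strand at chr11:82035571-82037453, and the next listed chemokine gene, Ccl7, starts 8258 bases after its end. Cxcl5 (chr5:90759360-90761624), Cxcl1 (chr5:90891241-90893115) and Cxcl2 (chr5:90903871-90905938) form a cluster on the plus strand of chromosome 5, with 10755 bases between Cxcl1 and Cxcl2, and Cxcl10 (chr5:92346638-92348889) lies further along on the minus strand. RefSeq promoters on GRCm38.p6 were given for 7 of the 10 genes, and 5 of those held the NF-kB consensus, a 10-letter pattern sought on both strands of the 250 bases before the start, against 3.9% of 32851 promoters. The 170 bases before the start are shown for these 5 genes, as those with a match. No promoter was given for Ccl2, Cxcl5 and Cxcl16, so these genes were not searched. Capitals mark the NF-kB consensus, and each sequence is written in the direction of its gene.
Cxcl1 (chr5:90891075-90891244, plus strand): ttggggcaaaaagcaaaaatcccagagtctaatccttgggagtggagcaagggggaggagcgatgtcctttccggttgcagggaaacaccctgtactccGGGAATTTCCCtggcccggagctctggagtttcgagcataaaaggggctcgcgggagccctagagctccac
Cxcl2 (chr5:90903729-90903898, plus strand): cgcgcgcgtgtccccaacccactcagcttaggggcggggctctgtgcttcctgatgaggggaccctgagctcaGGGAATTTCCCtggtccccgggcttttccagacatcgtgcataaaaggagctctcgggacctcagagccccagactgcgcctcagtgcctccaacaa
Ccl20 (chr1:83116596-83116765, plus strand): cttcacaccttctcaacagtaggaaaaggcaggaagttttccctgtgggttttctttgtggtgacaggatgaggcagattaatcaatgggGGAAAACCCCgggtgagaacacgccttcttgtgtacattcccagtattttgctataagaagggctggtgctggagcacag
Cxcl10 (chr5:92348890-92349059, minus strand): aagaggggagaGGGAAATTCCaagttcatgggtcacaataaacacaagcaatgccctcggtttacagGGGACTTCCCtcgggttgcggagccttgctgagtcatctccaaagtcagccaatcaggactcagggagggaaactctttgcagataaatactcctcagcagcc
Csf1 (chr3:107760470-107760639, minus strand): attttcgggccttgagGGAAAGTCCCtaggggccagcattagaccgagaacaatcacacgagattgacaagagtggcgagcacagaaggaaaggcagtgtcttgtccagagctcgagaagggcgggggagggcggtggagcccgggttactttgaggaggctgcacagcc
Cxcl1 and Cxcl2 carried the same letters, read on both strands as overlapping matches, with the first base 71 and 97 bases before the start. Cxcl10 was the gene with 2 separate matches, and it also held the AP-1 pattern TGANTCA, which 6.75% of all promoters held. The pattern TATAAA was found in Cx3cl1 and Il18 and in 12.37% of all promoters. A match of letters is a description and was not tested as a binding site.

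Totals per library ran from 1776490 to 14761853 counts in the dome and suspension cultures, from 639086 to 3175147 in the bulk passage libraries and from 1059002 to 11175868 in the kept single organoids. The label of ductal epithelium held, since the 11 ductal markers summed to between 5577 and 22549 CPM (counts scaled to library totals of 1000000) in every library used. Stellate, endothelial and other leukocyte markers each stayed below 10 CPM in sum. Of 12 macrophage markers, Cd14, which epithelia can also express, gave most counts. Adgre1, C1qa, Tyrobp and Lyz2 had at most 4 counts in any of the tables, and C1qb and Clec4f were not among the genes listed. The sum of the 12 markers was 153 to 250 CPM in domes against 578 to 737 CPM in suspension. It was 377 to 577 CPM at passage 11 against 834 to 1241 CPM at passage 4. Of the 3 markers tested between domes and suspension, Cd14 was called lower in domes (log2 fold-change -1.60). Cd68 was called higher (3.06), with limits given below, and 1 did not pass. The sum, mostly Cd14, thus moved with several of the genes below, and its part in those results was not tested. In bulk cultures, fewer cells that express a gene and less of its RNA per cell cannot be told apart. Replicates were separate cultures or organoids, and P-values measure the spread between them.

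The dome and suspension cultures compare organoids in a gel drop with organoids shaken in dilute Matrigel. Per the study's methods, suspension cultures were also passaged at shorter intervals, and these differences cannot be told apart. The contrast was used to choose the genes, so their values here are a description without a test. Ccl2 was at 4.06, 5.83 and 1.69 CPM in the 3 domes and at 233, 68.3 and 51.2 CPM in the 3 suspension cultures. No dome came near any suspension culture, and the mean of suspension was 30.4-fold higher. The fitted log2 fold-change of domes against suspension was -4.49 with a standard error of 0.67, the lowest of the 9 genes that passed the filter on low counts. Without the first suspension culture, which held the most Ccl2, it was -3.50.

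The 3 neutrophil attractants of the Cxcr2 group were also lower in domes. Cxcl1 was at 58.8, 36.6 and 37.7 CPM in domes and at 181, 106 and 136 CPM in suspension. Cxcl2 was at 10.8, 17.0 and 15.8 CPM in domes and at 39.9, 47.9 and 41.4 CPM in suspension. Cxcl5 was at 483, 172 and 566 CPM in domes and at 1051, 823 and 1010 CPM in suspension. Domes and suspension did not overlap for any of the 3 genes, and the mean was 3.18-fold, 2.97-fold and 2.36-fold higher in suspension. Their fitted log2 fold-changes were -1.24 ± 0.27, -1.23 ± 0.27 and -0.91 ± 0.31 (standard error).

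The other genes did not share that pattern. Cx3cl1, the membrane-bound ligand of Cx3cr1, was at 29.7, 24.9 and 47.8 CPM in domes and at 18.4, 22.7 and 23.0 CPM in suspension, so that every dome stood above every suspension culture. Il18 was also higher in each dome, at 6.84, 10.1 and 1.69 CPM against 1.19, 1.56 and 1.16 CPM, but the lowest dome rests on 3 counts. Ccl20 spread widely among domes, at 210, 22.8 and 114 CPM, and covered the range of suspension at 183, 76.6 and 79.5 CPM. Csf1 was at 2.17, 0 and 5.63 CPM in domes and 6.45, 3.91 and 5.13 CPM in suspension, and the dome at 0 allows up to 1.59 CPM. Cxcl10 had 0 to 7 counts in domes and 2 to 5 in suspension and did not pass the filter.

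The direction of Cxcl16 depended on the scaling. It was at 203, 285 and 279 CPM in domes and at 330, 304 and 331 CPM in suspension, lower in each dome, yet its fitted log2 fold-change was 0.08 with TMM factors (trimmed mean of M values, which correct for composition) and -0.34 with library totals only. The fitted values of Cx3cl1 and Cxcl2 also moved with library totals only, from 1.02 to 0.66 and from -1.23 to -1.62. Over all 12699 genes tested, library totals placed the median log2 fold-change at -0.42 and TMM at -0.04. Of the called genes, 21.8% against 50.5% were then higher in domes. By plain CPM, 5 of the 10 genes lay lower in domes without overlap, and 37.9% of all genes did so. The 2 genes that lay higher without overlap, Cx3cl1 and Il18, compare with 10.6% of all genes. After TMM scaling, edgeR's quasi-likelihood test called 29.8% of all genes, 14.7% lower and 15% higher in domes. The median log2 fold-change of the 9 genes that passed the filter was -0.74. Their calls are not counted, because this contrast was used to choose them.

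**Figure D1:**
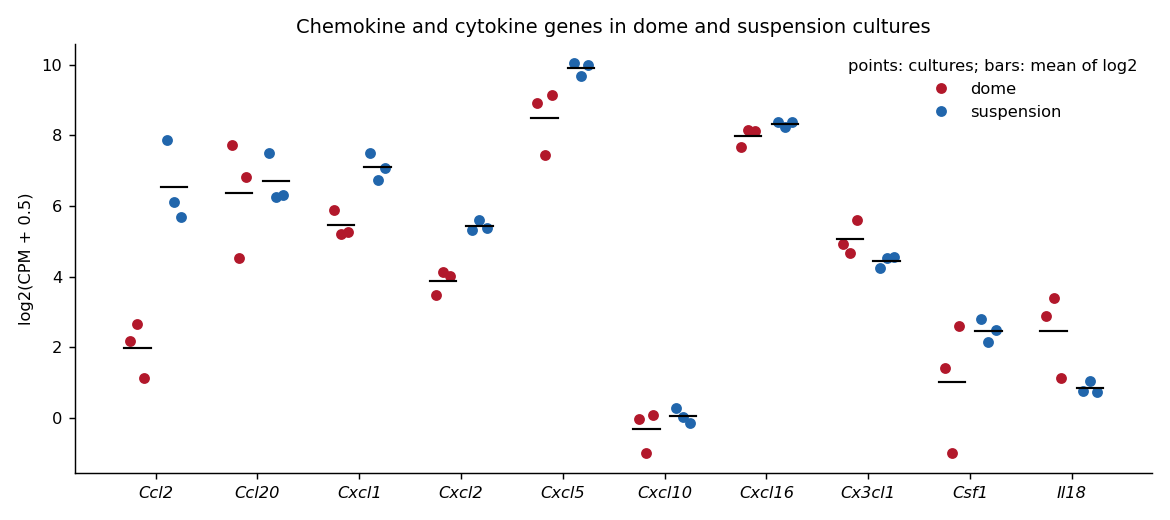
Levels of the 10 genes in each dome culture (red) and each suspension culture (blue) as log2(CPM + 0.5), with black bars for the mean of the log2 values of 3 cultures. Ccl2 shows the widest gap between the groups, Cxcl1, Cxcl2, Cxcl5 and Cxcl16 lie lower and Cx3cl1 and Il18 higher in domes, and Ccl20, Cxcl10 and Csf1 overlap.

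Other ligands and the receptors were tested in the same fit, with adj. P-values from edgeR over all genes. Of 40 other ligand genes 13 were tested, 2 fell and 3 rose in domes, and 3 were called in all without any 1 of the suspension cultures. Ccl7, the monocyte attractant next to Ccl2, had 0.407 to 0.563 CPM in domes and 4.43 to 14.8 CPM in suspension (log2 fold-change -3.80, adj. P-value 0.00392). Cxcl3, a further Cxcr2 ligand, fell as well (log2 fold-change -2.51, adj. P-value 0.00568). Pf4, a platelet-type chemokine, rose (log2 fold-change 1.06, adj. P-value 0.00591). Of 26 receptor genes only 5 could be tested, while Ccr2, Cxcr1, Cxcr2 and Cxcr3, which bind several of the 10 proteins, were not among the genes listed for these 6 cultures. Cx3cr1, the receptor of Cx3cl1, moved opposite to its ligand, with 0 to 1.06 CPM in domes and 7.17 to 8.60 CPM in suspension (log2 fold-change -3.27, adj. P-value 0.00222). The other receptor that fell, Il18rap, had 1 count over the 3 domes against 37 in suspension (adj. P-value 0.0199, and 0.222 without dome 1 or 0.0646 without suspension 1). Csf1r, Ccrl2 and Il18r1 were measured below 4 CPM and did not pass the test.

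Pathway genes changed in both directions between domes and suspension, where 14.7% of all genes were called lower and 15% higher in domes. Of 21 interferon pathway genes tested, 9 rose in domes and none fell, with a median log2 fold-change of 0.72 against -0.04 over all genes. Irf7, the factor that amplifies the interferon response, rose from 5.21 to 6.12 CPM in suspension to 37.2 to 152 CPM in domes (log2 fold-change 4.27, adj. P-value 0.00201), and Isg15 (4.20) and Ifit1 (3.78) rose with it. Cxcl10, the interferon-induced chemokine, had at most 7 counts in any of these 6 cultures. Of 35 NF-kB pathway genes tested, 2 rose and 1 fell, and 32 did not pass the test. Nfkbiz, a cofactor of NF-kB, was the 1 that fell (log2 fold-change -0.94, adj. P-value 0.0190), and its call was lost without dome 1, suspension 1 or suspension 3. The list had 7 calls without dome 1 and 1 call without any 1 of the suspension cultures. In the AP-1 and MAP kinase list 6 of 16 genes rose and 2 fell, namely Fosb (log2 fold-change -4.96, adj. P-value 0.00201) and Fosl1 (-1.51, adj. P-value 0.00204), both subunits of AP-1. Among the 11 tested genes for processing and shedding, 3 rose and 1 fell, and Pycard, the adaptor of the inflammasome that matures Il18, rose (log2 fold-change 1.39, adj. P-value 0.00436). The AP-1 and MAP kinase list had 5 calls without suspension 3, and the list for processing and shedding had 2 without dome 3, suspension 1 or suspension 3. In the marker lists, 5 of 11 ductal genes rose, among them Krt19 (log2 fold-change 2.00), and Spp1 fell (-1.61), with 3 calls in all without suspension 1 or suspension 3. All 6 proliferation genes fell, and Cd14 fell (-1.60, adj. P-value 0.00453). Cd68 and S100a9 were called higher in domes (log2 fold-changes 3.06 and 2.13), but each lost its call in 3 of the runs with 1 culture left out (adj. P-value up to 0.152 for S100a9), and S100a9 also with the replicate block (0.0863).

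Passage was compared in bulk cultures of the same sets, each the organoids of 1 mouse, at labelled passages 4 and 11. Which cultures were the later ones rests on those labels, and every direction given here would turn if the labels were exchanged. Proliferation genes, given below, were higher in the cultures labelled passage 11. In single organoids, 3 of 6 such genes were called lower in Set 1 at passage 11 than in Set 2 at passage 3. Against Set 4 at passage 4, 3 were also called lower in Set 1, and against Set 3 none passed. Of all genes, 14.3%, 20% and 9.43% were called there, and mouse and passage cannot be told apart. In the bulk cultures, most of the 10 genes were lower at passage 11, and the size differed between sets. Cxcl2 was at 569, 623 and 312 CPM at passage 4 in Sets 1, 3 and 4 and at 173, 55.7 and 16.8 CPM at passage 11. All 3 sets fell, by 3.28-fold, 11.2-fold and 18.6-fold. The log2 fold-change was -2.50 ± 0.62 (standard error, adj. P-value 0.0193 by edgeR). The last value rests on 25 counts, and its 2 technical replicates differed by 1.99-fold.

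The other Cxcr2 ligands were also lower. Cxcl5 was at 499, 779 and 660 CPM at passage 4 and at 235, 233 and 95.5 CPM at passage 11, without overlap (log2 fold-change -1.74 ± 0.32, adj. P-value 0.00584). Cxcl1 was at 1115, 1179 and 738 CPM at passage 4 and at 624, 247 and 133 CPM at passage 11 (log2 fold-change -1.54 ± 0.48, adj. P-value 0.0452). Both genes were lower at passage 11 in each of the 3 sets, but the call of Cxcl1 was lost when any 1 of 5 of the 6 cultures was left out (adj. P-values 0.0512 to 0.144). Csf1, the macrophage growth factor, was at 45.2, 46.6 and 53.7 CPM against 21.1, 18.2 and 15.5 CPM (log2 fold-change -1.36 ± 0.18, adj. P-value 0.00128). Cxcl16 was at 734, 633 and 628 CPM against 433, 351 and 246 CPM (log2 fold-change -0.93 ± 0.22, adj. P-value 0.0167). Cxcl2, Cxcl5, Cxcl1, Csf1 and Cxcl16 were lower without overlap, as were 20.4% of all genes.

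Ccl2 was split between the sets. It was at 509, 732 and 816 CPM at passage 4 and at 815, 267 and 76.7 CPM at passage 11, so that Set 1 was 1.60-fold higher while Sets 3 and 4 were 2.74-fold and 10.6-fold lower at passage 11. The 2 technical replicates of each culture went the same way, within 1.05-fold of each other. Over the 3 sets the log2 fold-change of -0.74 ± 0.62 did not pass the test (adj. P-value 0.429, and 0.130 with the set as a block). Ccl20 showed a similar split, at 793, 900 and 594 CPM against 812, 289 and 155 CPM (log2 fold-change -0.80 ± 0.49, adj. P-value 0.283), and passed when the set was a block (-1.18, adj. P-value 0.0256). Cxcl10 was at 330, 128 and 156 CPM against 144, 11.3 and 14.8 CPM, lower in each set by 2.29-fold, 11.3-fold and 10.5-fold. Its levels in Set 1 lay above those of the other sets at both passages, and it passed the test with the set block (log2 fold-change -2.51, adj. P-value 0.00182) but not without it (-1.71, adj. P-value 0.153). Without Set 1, Ccl2 (log2 fold-change -2.14, adj. P-value 0.0106), Ccl20 (-1.76, adj. P-value 0.00548) and Cxcl10 (-3.54, adj. P-value 4.15e-05) were all called lower.

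Cx3cl1 was at 30.7, 34.9 and 38.5 CPM against 19.9, 33.2 and 32.3 CPM and did not pass the test (log2 fold-change -0.31, adj. P-value 0.265). Il18 had 0 to 4 counts per culture at passage 4 and 3 to 11 at passage 11, lay higher at passage 11 without overlap, as 18.2% of all genes did, and did not pass the test (adj. P-value 0.0913).

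In all, 5 of the 10 genes were called lower at passage 11 and none higher, while edgeR called 20.3% of all 13738 genes, 10.1% lower and 10.1% higher. The median log2 fold-change was -1.14 for the 10 genes and -0.05 for all genes. Because the genes were chosen with their levels in these data known, the count of calls is a description. The count was 7 of 10 with the set as a block, when 2950 of all genes were called against 2784 without it. It was 8 without Set 1, when 2198 of all genes were called. It was 2 without Set 3, namely Csf1 and Cxcl5, when only 561 of all genes were called. The adj. P-values were then 0.134 for Cxcl2, 0.241 for Cxcl1 and 0.113 for Cxcl16. It was 3 without the passage 4 culture of Set 3, when Cxcl2 was also lost and 1552 of all genes were called. It was 2 without its passage 11 culture, when Cxcl2 and Cxcl16 were lost and 1632 of all genes were called.

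**Figure D2:**
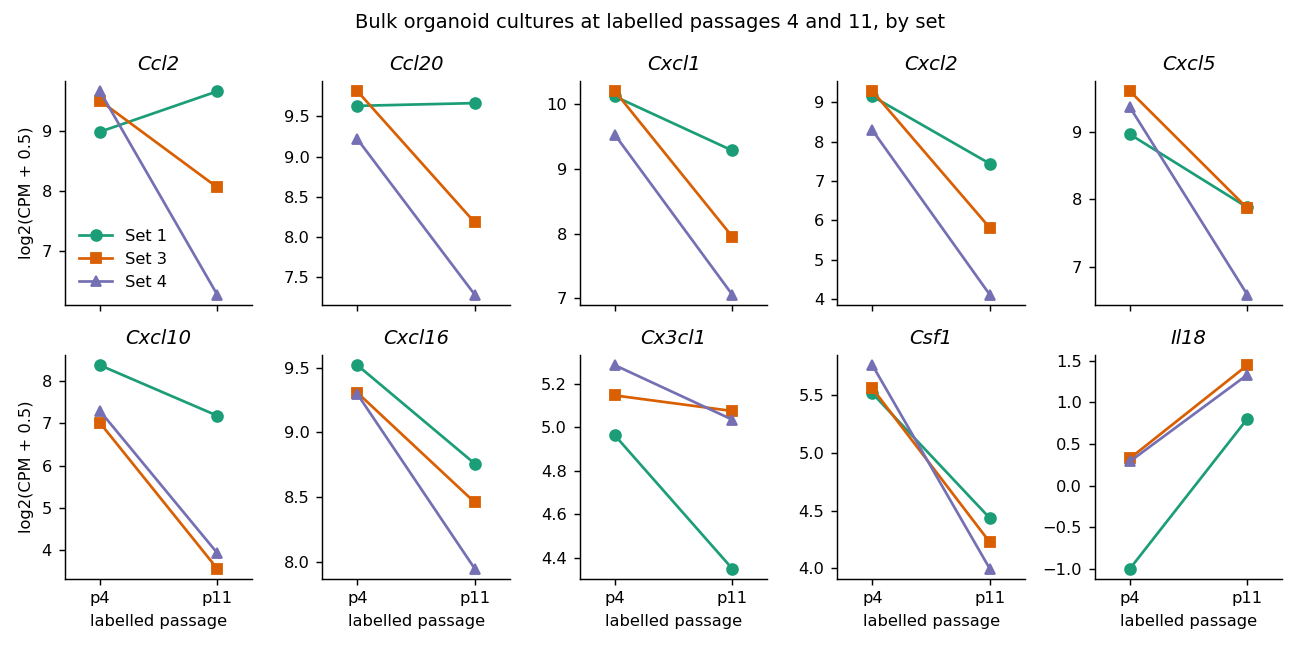
Levels of the 10 genes as log2(CPM + 0.5) in bulk cultures at labelled passages 4 (p4) and 11 (p11), with 1 line per set and technical replicates summed, and a separate vertical scale in each panel. Lines fall in all 3 sets for Cxcl1, Cxcl2, Cxcl5, Cxcl10, Cxcl16, Cx3cl1 and Csf1, Ccl2 rises in Set 1, Ccl20 is level in Set 1, and the Il18 lines rest on 0 to 11 counts per culture.

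In the lists of pathway genes, calls towards lower levels at passage 11 outnumbered those towards higher levels, though most genes tested did not pass. Of all genes, 10.1% were called lower and 10.1% higher, and 561 genes were called without Set 3. Of 35 NF-kB pathway genes tested, 12 fell and none rose, with a median log2 fold-change of -0.61, and 3 were called without Set 3. Tnfaip3, the inhibitor that NF-kB itself induces, fell from 26.8 to 42.4 CPM at passage 4 to 4.71 to 10.3 CPM at passage 11 (log2 fold-change -1.99, adj. P-value 0.00160). Of 23 interferon pathway genes 12 fell and none rose, with a median of -1.17. The count was 2 without Set 3, 4 without Set 4, and 6 without the passage 4 culture of Set 4 or the passage 11 culture of Set 3. Among those that fell were Gbp3 (log2 fold-change -3.72, adj. P-value 0.00101) and Irf7 (-2.63, adj. P-value 0.00282). Of 22 other ligand genes tested, 10 fell and 3 rose. In all 2 were called without Set 3, 4 without its passage 11 culture and 8 without any 1 of the passage 4 cultures. Csf3, the growth factor of neutrophils, fell from 47.5 to 94.2 CPM to 2.69 to 10.4 CPM (log2 fold-change -2.96, adj. P-value 0.000989), and Ccl7 fell as well (-2.32, adj. P-value 0.00560). In the AP-1 and MAP kinase list 5 of 15 genes fell and 1 rose, with Dusp1, a phosphatase of MAP kinases, at -1.85 (adj. P-value 0.00122). Without Set 3 this list had 1 call, and it had 3 without Set 4 or without any 1 culture other than that of Set 1 at passage 11. In the list for processing and shedding 4 of 12 genes fell and none rose, and 2 were called without Set 4. Il18bp, the secreted inhibitor of Il18, fell from 14.3 to 21.5 CPM to 1.42 to 2.69 CPM (log2 fold-change -3.09, adj. P-value 0.000418). None of the 3 tested receptor genes passed, of which Ccrl2 came nearest (adj. P-value 0.0563).

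Marker lists also changed. Of the 6 proliferation genes 4 rose at passage 11, led by Ccna2 (log2 fold-change 2.41, adj. P-value 0.000164), and their sum was 336 to 503 CPM at passage 11 against 141 to 162 CPM at passage 4. Of 11 ductal genes, Cldn4 (-2.41) and Cdh1 (-0.88) fell and 1 rose. Cd14 fell (log2 fold-change -1.15, adj. P-value 0.00520, and 0.0784 without Set 3). S100a9 was at -1.77 (adj. P-value 0.0429), a call that was lost in 8 of 9 runs with a culture or set left out (adj. P-value up to 0.165), and the 1 tested endothelial gene did not pass. The part of these lists in the results on chemokines was not tested.

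Single organoids show how far the genes vary from organoid to organoid and from set to set. Sets 2 and 3 were both at passage 3, so passage did not differ between them. In the other comparisons of sets, mouse and passage cannot be told apart. P-values measure the spread between organoids. Ccl2 ranged from 3.13 to 14.6 CPM in Set 1 (median 8.80), from 15.5 to 68.3 CPM in Set 2 (median 28.9), from 22.2 to 53.9 CPM in Set 3 (median 36.1) and from 4.71 to 33.8 CPM in Set 4 (median 7.07). Every organoid of Set 1 was below every organoid of Sets 2 and 3, whereas Set 4 reached into their range through organoid 11 alone. Set 2 exceeded Set 1 (log2 fold-change of Set 1 against Set 2 -1.95 ± 0.32, adj. P-value 3.04e-05) and Set 4 (1.65 ± 0.27, adj. P-value 4.72e-05). Set 3 exceeded Set 1 (Set 1 against Set 3 -2.07 ± 0.35, adj. P-value 6.99e-05) and Set 4 (1.77 ± 0.32, adj. P-value 0.000150). Sets 1 and 4 differed by -0.30 ± 0.31 and Sets 2 and 3 by -0.12 ± 0.33, both short of the threshold (adj. P-values 0.574 and 0.854).

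Set 3 had the highest medians of all 3 Cxcr2 ligands. Cxcl2 was at 202 to 281 CPM in its 5 organoids, against 14.9 to 74.8 CPM in Set 4, 22.0 to 55.2 CPM in Set 1 and 37.1 to 312 CPM in Set 2. Organoids 4 and 7 of Set 2, at 312 and 225 CPM, reached the level of Set 3, while the other 8 kept organoids of Set 2 stayed between 37.1 and 58.2 CPM. Set 3 exceeded Set 4 (log2 fold-change 2.67 ± 0.35, adj. P-value 8.70e-07), Set 1 (Set 1 against Set 3 -2.48 ± 0.40, adj. P-value 2.50e-05) and Set 2 (Set 2 against Set 3 -1.28 ± 0.37, adj. P-value 0.0170). Set 2 against Set 1 was called (-1.20 for Set 1 against Set 2, adj. P-value 0.0180) but not without organoid 4 of Set 2 (-0.76, adj. P-value 0.0894). Cxcl5 was at 1349 to 2526 CPM in Set 3 and at 205 to 886 CPM in Set 4 (log2 fold-change 2.05 ± 0.27, adj. P-value 8.33e-07), without overlap of kept organoids. Organoid 2 of Set 3, which the study left out, had 54.7 CPM of Cxcl2 and 686 CPM of Cxcl5, within the ranges of Set 4. Cxcl1 was at 136 to 304 CPM in Set 3 against 51.7 to 169 CPM in Set 4 (1.06 ± 0.22, adj. P-value 0.00106) and 62.0 to 124 CPM in Set 1 (Set 1 against Set 3 -1.07 ± 0.24, adj. P-value 0.00246).

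Cxcl10 spread widely within Set 2. It was below 8 CPM in all kept organoids of Sets 1, 3 and 4, and in Set 2 it was at 3.28 to 11.6 CPM in 7 organoids and at 46.7, 51.7 and 133 CPM in organoids 7, 6 and 4. Set 2 exceeded Set 1 (Set 1 against Set 2 -3.52 ± 0.59, adj. P-value 5.15e-05), Set 3 (3.44 ± 0.72, adj. P-value 0.00102) and Set 4 (3.16 ± 0.50, adj. P-value 1.88e-05). Of 23 interferon pathway genes, 13 were lower in Set 1 than in Set 2. In Set 2, 11 were higher and 1, Ifngr1, was lower than in Set 3, and 15 were higher than in Set 4. The others did not pass, and 14.3%, 3.93% and 12.4% of all genes were called in these comparisons in turn. Ifit1, an interferon-induced RNA-binding protein, was 30.3-fold lower in Set 1 than in Set 2 (adj. P-value 1.62e-07) and 16.1-fold higher in Set 2 than in Set 4 (adj. P-value 9.78e-08).

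Csf1 was at 10.8 to 41.0 CPM in Set 3 and 11.0 to 38.9 CPM in Set 2, and at 6.08 to 11.2 CPM in Set 1 and 4.54 to 14.2 CPM in Set 4. It was called higher in each of Sets 2 and 3 than in each of Sets 1 and 4, by 2.09-fold to 2.91-fold. Ccl20 had the highest median in Set 1, at 58.0 CPM with a range from 32.9 to 131 CPM, and Set 1 exceeded Set 2 (log2 fold-change 1.22 ± 0.29, adj. P-value 0.00336) and Set 4 (0.98 ± 0.27, adj. P-value 0.0117). Cxcl16 stayed within 166 to 404 CPM over all 35 organoids and was called in 1 of 6 comparisons, Set 1 against Set 3 (-0.65 ± 0.20, adj. P-value 0.0249, and 0.0733 without organoid 1 of Set 3). Cx3cl1 stayed within 5.08 to 16.8 CPM and was called lower in Set 2 than in Set 4 (-0.64 ± 0.21, adj. P-value 0.0360). That call was lost in 6 of 17 alternatives, among them without organoid 4 of Set 2 (adj. P-value 0.0556) and without organoid 11 of Set 4 (0.0505). It was also lost with no filter (0.0590), thinning (0.0714), all 42 organoids (0.0885) and the replicate block (0.170). The relation of Cx3cl1 to depth is given below. Il18 did not pass the filter on low counts and was at 0 in 4 of 5 organoids of Set 3, which allows up to 1.08 to 1.76 CPM in each.

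**Figure D3:**
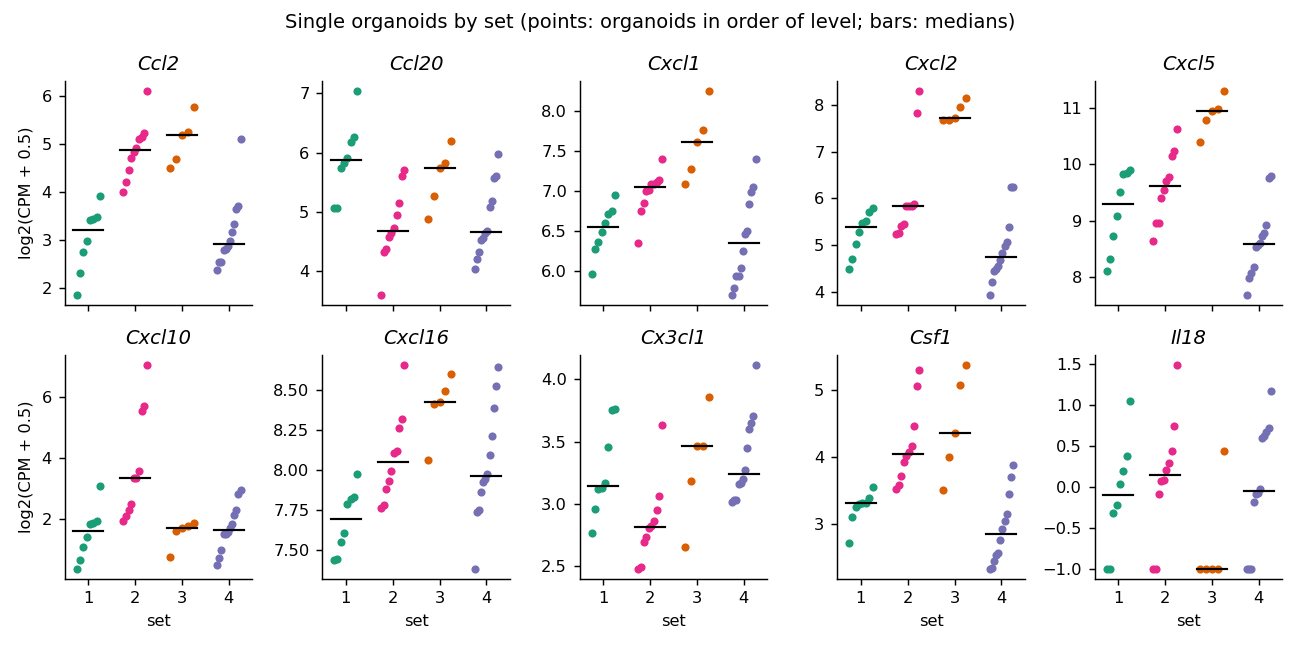
Levels of the 10 genes in 35 single organoids by set as log2(CPM + 0.5), 1 point per organoid in order of level within its set, with black bars for medians and a separate vertical scale in each panel. Set 3 leads for Cxcl1, Cxcl2 and Cxcl5, Sets 2 and 3 lie above Sets 1 and 4 for Ccl2, and 3 organoids of Set 2 stand far above the rest for Cxcl10.

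Counts of calls among the 9 tested genes stood against the share of all 13927 genes called in the same comparison. Of the 9 genes, 5 were called between Sets 1 and 2 (14.3% of all genes), 6 between Sets 1 and 3 (9.43%), 1 between Sets 1 and 4 (20%), 3 between Sets 2 and 3 (3.93%), 6 between Sets 2 and 4 (12.4%) and 5 between Sets 3 and 4 (11.6%). Over all 6 comparisons, 26 of 54 tests of these genes were called and 11.9% of the tests of all genes. The genes were chosen with their levels in these data known, and the comparisons share sets. These counts are therefore descriptions and not a test of the genes as a group. Sets 1 and 4, with 1 of the 9 genes called but 2780 genes called in all, had the fewest calls among the 9 genes. Library totals in place of TMM moved the share of called genes that were higher in Set 1 than in Set 3 from 45.6% to 35.2%, and the median log2 fold-change of all genes was then 0.12 between Sets 2 and 4 and 0.11 between Sets 3 and 4, against 0.04 and 0.00 with TMM. No called gene of the 9 changed its direction.

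Several other ligands and receptors also differed between sets. Ccl7, next to Ccl2 in the genome, had medians of 3.81, 12.9, 12.8 and 2.78 CPM in Sets 1 to 4 and was called lower in Set 1 than in Set 2 (log2 fold-change -2.30, adj. P-value 1.12e-05) and higher in Set 2 than in Set 4 (2.45, adj. P-value 3.92e-07). Csf3 had its highest median in Set 3, which exceeded Set 4 (2.80, adj. P-value 8.05e-05). Of 36 NF-kB pathway genes tested, 8 were higher in Set 3 than in Set 4 and none lower, led by Il1r1, the interleukin-1 receptor (1.92, adj. P-value 1.57e-05). Of all 13927 genes, 1099 were called higher and 511 lower in Set 3 than in Set 4. Between Sets 1 and 4, 4 of the 36 were higher in Set 1 and none lower, while 1721 of all 13927 genes were called higher and 1059 lower in Set 1. Ccr2, the receptor of Ccl2, had 1 count in all, and Cxcr2 had 12. Of the receptors, Il18r1 was lower in Set 1 than in Set 2 (-3.65, adj. P-value 0.00248) and Set 3 (-4.16, adj. P-value 0.00123), at no more than 7.87 CPM in any organoid. The macrophage sum had medians of 289, 306, 431 and 259 CPM in Sets 1 to 4, and its part in the higher chemokine levels of Set 3 was not tested.

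Variation within sets differed by gene. The biological coefficient of variation (BCV, the spread between organoids beyond counting error) was 0.72 for Cxcl10 and 0.48 for Cxcl2, or 2.45 and 1.79 times the trend of genes of like level, and 99.7% and 98.0% of all genes had a lower ratio. Ccl2 (0.41), Ccl20 (0.41) and Cxcl5 (0.37) also lay above the trend, by 1.46, 1.50 and 1.37 times. Cxcl16 (0.25) and Cx3cl1 (0.29) lay near it, at 0.91 and 0.97 times. Differences between sets took 68.5% of the variance of log2 CPM of Ccl2, 65.3% of Cxcl2 and 25.0% of Cx3cl1, against a median of 19.1% over all genes.

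After the mean of each set was removed, most pairs of the genes had positive correlations from organoid to organoid, and the negative values all involved Cx3cl1 or Cxcl16. Of 36 pairs among 9 genes, 30 had a Pearson r above 0, and the median was 0.34 over 35 organoids. These values are descriptions over organoids that share mice and differ in depth, and the same share among pairs of other genes was not computed. Cxcl2 and Cxcl5 had r = 0.76, Cxcl1 and Cxcl16 0.75, Cxcl2 and Csf1 0.74, and Ccl2 and Cxcl1 0.71. Cxcl2 and Cxcl10 had r = 0.51, and 0.13 without Set 2, while Ccl20 and Cxcl10 had 0.22 and -0.34. Cx3cl1 went with Cxcl16 (0.52) but had negative values with Cxcl10 (-0.35), Cxcl5 (-0.26), Ccl2 (-0.13) and Cxcl2 (-0.12), and it was the gene most related to depth (r = 0.61 with the log2 total, against -0.25 for Ccl2).

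**Figure D4:**
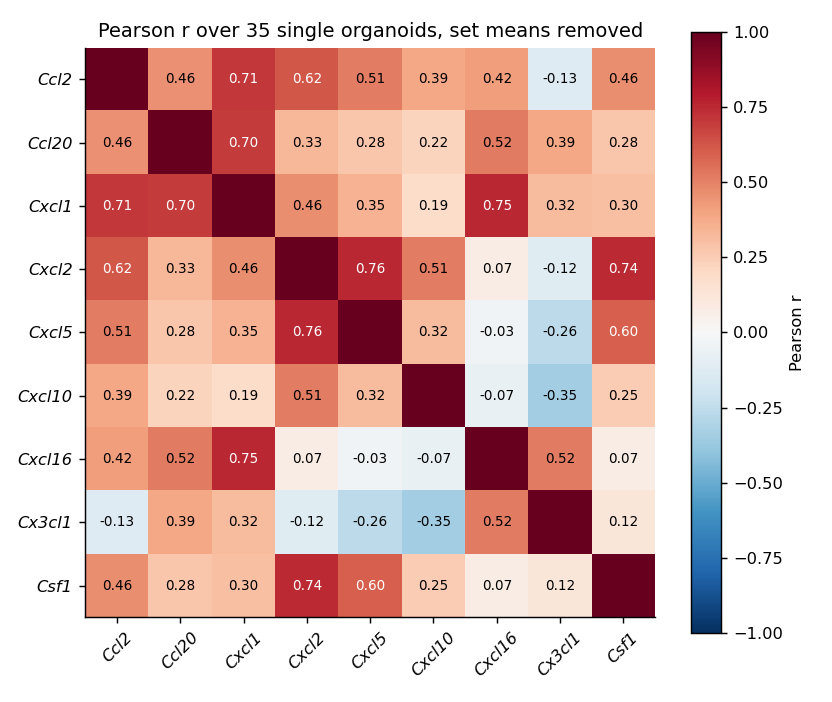
Pearson r between each pair of 9 genes over 35 single organoids, computed on log2 CPM after the mean of each set was removed, with red for positive and blue for negative values. Ccl2, Cxcl1, Cxcl2, Cxcl5 and Csf1 are positively related in each pair, with Cxcl1 and Csf1 the least so at 0.30, and the negative values all involve Cx3cl1 or Cxcl16.

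Among 6235 genes with an average of at least 4 on the log2 CPM scale, the 8 most like Ccl2 across organoids were Ankrd1 (r = 0.71), Cxcl1 (0.71), Ctps (0.69), Serpinb6b (0.68), Mapk6 (0.66), F2rl1 (0.65), Slco3a1 (0.65) and Lyar (0.62). Ankrd1 encodes a nuclear ankyrin repeat protein, Ctps makes the nucleotide CTP, and F2rl1 is a receptor cut by proteases. The least like were Ugdh (-0.61), Washc1 (-0.60), Akr1c19 (-0.57) and Ppp1r1b (-0.55). Over all genes the median r was -0.02, and the central 95% of genes lay between -0.39 and 0.39. Without organoid 11 of Set 4 and organoid 4 of Set 2, which lay farthest from their set means in Ccl2, r was 0.59 for Ankrd1 and 0.63 for Cxcl1. Among all 13927 tested genes, Cxcl1 ranked 2 in likeness to Ccl2, Cxcl2 ranked 13 (r = 0.62, and 0.42 without those organoids) and Cxcl5 ranked 73 (0.51 and 0.36).

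Set side by side, mean levels of Ccl2 ran from 686 CPM in bulk cultures at passage 4 (SD 159, n = 3), 386 CPM at passage 11 (SD 383, n = 3) and 117 CPM in suspension cultures (SD 100, n = 3), through 35.1 CPM in Set 3 (SD 12.5, n = 5) and 31.3 CPM in Set 2 (SD 14.9, n = 10), to 9.92 CPM in Set 4 (SD 7.96, n = 12), 8.38 CPM in Set 1 (SD 3.77, n = 8) and 3.86 CPM in domes (SD 2.08, n = 3). The ranges of neighbours overlapped at every step of this order, and of the steps within a table only that between Sets 2 and 4 passed the test given above. The 3 tables were made separately, so steps between them were not tested. The sources used do not say whether the bulk passage cultures grew in domes or in suspension, between which Ccl2 differed by 30.4-fold, so their place in the order is given without regard to the format.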

How the data were processed

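Counts per gene from 3′-end RNA-seq, deposited as 3 tables, were used as the authors made them. Per the study's methods, reads were processed with zUMIs, STAR, SAMtools 1.9 and featureCounts on mm10 with Ensembl annotation; no source used here tells whether the values are molecules or reads. Passages are those of the labels and methods; no measurement independent of the comparison was used to check their direction. The 10 genes and all gene lists were chosen with earlier results of these data known. Symbols came from GENCODE for GRCm38. In R 4.3.3, counts were scaled by TMM, filtered (filterByExpr, minimum count 3) and tested with edgeR 4.0.16 (quasi-likelihood, Benjamini-Hochberg over all genes, and over the 6 comparisons of sets together; threshold 0.05), checked on simulated data. Alternatives used limma 3.58.1, DESeq2 1.42.0, other scalings and filters, thinning, blocks and left-out libraries. Genes named from the lists (other ligands, receptors, NF-kB, interferon, AP-1 and MAP kinase, processing and shedding, cell markers) were among the 3 called with the largest change in each direction, and examples were preferred that were called without any 1 culture; Ccl7 at passage 11, as the neighbour of Ccl2, was added after its value was seen, and receptors with at least 3 counts could be named too. Same-numbered cultures deviated together (r = 0.15, 0.16 and 0.18 for dome and suspension), and sets share a mouse at both passages (0.11, 0.02 and 0.11), so both pair. Replicates differed by more than sampling noise. Counting error alone underlies the limits given for zeros. The 7 single organoids that the study left out were used in 1 alternative.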

Additional observations from a re-analysis of the deposited data

Results flagged for a closer look

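In Sets 1 to 3, which hold 5 to 10 organoids, 30 combinations of gene and set were screened for an organoid far from the others, and 7 stood out. The limits used assume normal values, of which about 1 in 20 combinations would stand out. CPM from low counts need not be normal, so the 7 are not held against that rate. Organoid 4 of Set 2 stood out for Ccl2, at 68.3 CPM against 15.5 to 37.3 CPM in the other 9, and for Cxcl10, at 133 CPM against at most 51.7 CPM. The same organoid had the highest Cxcl2 and Csf1 of Set 2. Organoid 3 of Set 1 had 131 CPM of Ccl20 against at most 76.0 CPM in the other 7. Cxcl10 was at 7.89 CPM in organoid 8 of Set 1 and at most 3.29 CPM in the others. Cx3cl1 was at 11.9 CPM in organoid 11 of Set 2 and at most 7.88 CPM in the others. Il18 was at 2.31 CPM in organoid 2 of Set 2 and at 0.86 CPM in organoid 1 of Set 3, on 3 counts each.

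Ccl2 rose by 0.68 on the log2 scale from passage 4 to passage 11 in Set 1, in both technical replicates, while it fell by 1.45 in Set 3 and 3.41 in Set 4. The difference between the sets was not tested, since each set holds 1 culture at each passage.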

How the results depend on the processing

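Thinning every library to the smallest total lowered the genes called from 3779 to 1211 between domes and suspension, from 2784 to 785 between passages and from 9962 to 2415 over the sets, so depth limits these counts. Leaving out cultures gave 1893 to 3837 genes between domes and suspension, with 1893, 2209 and 1926 without suspension cultures 1, 2 and 3. It gave 561 to 2244 between passages, with 2 to 8 of the 10 genes called, and the lowest values were 561 without Set 3 and 1460 without Set 4. The first technical replicate alone gave 1717 genes. With no filter, 8 of the 10 genes and 3447 of all genes were called between passages. Over the sets, 6137 genes were called with all 42 organoids and 6463 with the organoid number as a replicate block, a number that names organoids only. With the replicate block, 4019 genes were called between domes and suspension and 2950 between passages, with 7 of the 10 genes. Between passages it changed no call of the 10 genes other than Ccl20 and Cxcl10. It ended 2 of 32 calls of genes named from the lists between domes and suspension, and 2 of 27 between passages. After thinning, Ccl28 between domes and suspension was at -0.077 and Mapk8 between passages at 0.072, both against the direction without thinning. Cxcl1 between passages lost its call with DESeq2 (adj. P-value 0.127) and thinning (0.0568). Library totals only, which gave 3888, 2557 and 9848 genes called, and the runs without organoid 4 of Set 2 or organoid 11 of Set 4 were added after the data were seen. Over the sets, Csf1 lost 3 calls with thinning (adj. P-values 0.0731 to 0.194). The r of Ankrd1 with Ccl2 was 0.59 without the 2 farthest organoids and 0.75 with all 42.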
